A study of Mus musculus with 15 samples.

Results

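Rassf9, Gm649, Nlrp5 and Slc39a8 are 4 of the 50051 annotated features counted in mouse testis RNA, and they share no family, chromosome or known pathway. They were chosen by their RNA-seq counts on both strands, because their RNA stood highest in testes homozygous for the loss of a chromosome 18 piRNA locus, with heterozygous testes between the homozygous and wild-type testes. That pattern is therefore how the 4 genes were picked and not a finding, and their levels by genotype are described here without p-values. Counts of how many of them passed the threshold used for all features are given further on, as part of that description. The choice had no numerical threshold.

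The samples were whole testes of B6D2F1 mice at postnatal day 28. The RNA-seq libraries numbered 3 of homozygous testis (Chr18-/-, labelled KO) and 3 of heterozygous testis (Chr18+/-, labelled HT control). Another 3 were of wild-type testis (Chr18+/+, labelled WT control). The small RNA libraries numbered 3 of homozygous and 3 of heterozygous testis, with no wild-type group. The labels describe the allele no further, name no transgene or drug, and do not say whether libraries of a group came from separate animals, so every p-value below measures the spread between these libraries, which may be technical.

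Pachytene piRNAs are small RNAs that spermatocytes and round spermatids cut from long precursor transcripts and load onto PIWI proteins, which use them as guides to find other RNAs. The 4 genes come from distant parts of cell biology. Rassf9 encodes a member of the Ras association domain family that binds the peptide-processing enzyme PAM on recycling endosomes, and in mouse skin it acts in keratinocyte differentiation. Nlrp5, also called Mater, encodes a protein of the subcortical maternal complex of the oocyte, which the embryo needs for its first divisions. Slc39a8 encodes ZIP8, a transporter that brings zinc, manganese, iron and cadmium into cells, and in mice it underlies the strain difference in cadmium damage to the testis. Gm649 carries only a predicted-gene name, and the reference annotation lists it as an unprocessed pseudogene on the X chromosome.

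Kit-strand totals ran from 21684791 to 41513634 counted fragments per library. The chromosome 18 piRNA precursor 18_qE1_36451_1 had 3 to 6 counts in homozygous libraries, 3983 to 8948 counts in heterozygous libraries and 5609 to 9595 counts in wild-type libraries and so was nearly lost where the labels say homozygous. Levels are in CPM, the usual unit of counts scaled to the depth of their library, and changes as the log2 fold change fitted by edgeR with its standard error. Marker genes of most testis cell types were present. Summed markers of elongating spermatids (Prm1, Prm2, Tnp1 and others) ran from 6061 to 8332 CPM in homozygous libraries, 3571 to 9442 CPM in heterozygous libraries and 10914 to 11442 CPM in wild-type libraries. Summed Leydig cell markers ran from 423 to 575 CPM in homozygous, 460 to 605 CPM in heterozygous and 1033 to 1155 CPM in wild-type libraries. Both sums stood lower in homozygous and heterozygous than in wild-type testes, as did 3 of 6 elongating spermatid markers and 5 of 6 measured Leydig markers by edgeR in each comparison. That is 50% and 83.3% called, beside 20.8% of all features for homozygous and 23.9% for heterozygous against wild type. The part of these cell types in the differences from wild type described below was not tested, and in whole tissue fewer cells of a type and less RNA per cell cannot be told apart. Between homozygous and heterozygous testes 0 of all these markers passed the test by edgeR or DESeq2, 2 had an unadjusted p under 0.05, and the ranges of both sums overlapped.

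**Figure D1:**
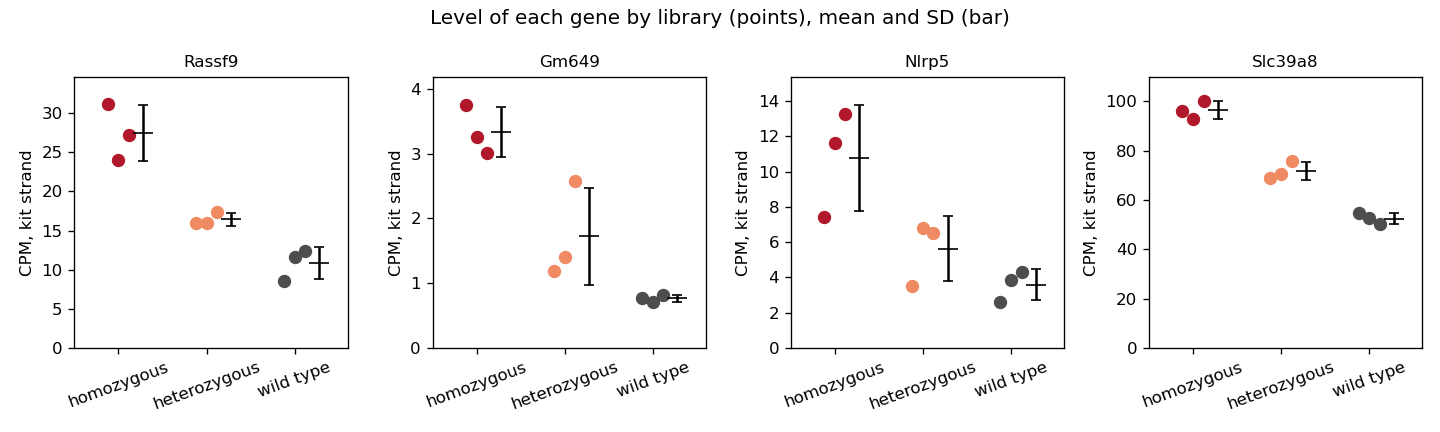
Level of Rassf9, Gm649, Nlrp5 and Slc39a8 in CPM on the kit strand (vertical axis, from 0) in each of the 9 RNA-seq libraries, homozygous left, heterozygous in the middle and wild type right. Points are libraries and bars are the mean and SD over 3 libraries. The lowest homozygous library lies above every other library for all 4 genes, most narrowly for Nlrp5 (7.44 against 6.82 CPM in the highest heterozygous library).

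Rassf9 (ENSMUSG00000044921.4) lies at chr10:102512222-102546560 on the plus strand of the mm10 build, 34339 bases that no other counted feature overlaps. Its level was 31.2, 24.1 and 27.2 CPM in the homozygous libraries, 16.0, 15.9 and 17.4 CPM in the heterozygous libraries and 8.57, 11.6 and 12.4 CPM in the wild-type libraries. The 3 genotypes did not overlap, and the lowest homozygous library stood 1.38 times above the highest heterozygous one. As means, Rassf9 reached 27.5 ± 3.58 CPM in homozygous testes, 16.5 ± 0.839 CPM in heterozygous testes and 10.9 ± 2.03 CPM in wild-type testes (SD, n = 3 each). Its log2 fold change was 0.74 (SE 0.14) for homozygous against heterozygous, 1.35 (SE 0.14) for homozygous against wild type and 0.61 (SE 0.14) for heterozygous against wild type. Of the CPM difference between homozygous and wild-type testes, 33.7% lay between heterozygous and wild type, so the larger step was the one from heterozygous to homozygous. These values rest on 688 to 881 fragments per homozygous library, 477 to 700 per heterozygous library and 273 to 314 per wild-type library. The opposite strand held 9 to 16 fragments per homozygous library, 16 to 24 per heterozygous library and 10 to 18 per wild-type library, so the signal was on the strand of the gene.

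Gm649 (ENSMUSG00000083923.1) is a single-exon locus of 1054 bases at chrX:89281118-89282171 on the minus strand (mm10). It was measured at 3.75, 3.25 and 3.00 CPM in the homozygous libraries, 1.19, 1.40 and 2.58 CPM in the heterozygous libraries and 0.771, 0.702 and 0.819 CPM in the wild-type libraries. The genotypes did not overlap, but heterozygous library 3 stood close to the homozygous ones and set most of the heterozygous spread. Mean levels were 3.34 ± 0.383 CPM in homozygous testes, 1.72 ± 0.748 CPM in heterozygous testes and 0.764 ± 0.0587 CPM in wild-type testes (SD, n = 3 each). The log2 fold change of Gm649 was 0.97 (SE 0.26) for homozygous against heterozygous, 2.12 (SE 0.29) for homozygous against wild type and 1.15 (SE 0.30) for heterozygous against wild type. Without heterozygous library 3 the first of these was 1.37. Gm649 had the largest change from wild type of the 4 genes and the fewest fragments, 78 to 106 per homozygous library, 42 to 75 per heterozygous library and 18 to 25 per wild-type library. On the opposite strand the 9 libraries together held 1 fragment, in heterozygous library 3.

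A sequence search placed Gm649 beside MAGE genes of the X chromosome, many of which are expressed in male germ cells and in tumours. Its 1054-base transcript matched transcripts of 9 other genes (blastn, E-value under 1e-10), and 6 of the 9 carry MAGE names. All 9 lie on the X chromosome. The closest was Mageb18, with 67.1% identity over 504 bases, and 0 matched at 95% identity or more over 100 bases, so no annotated near-identical copy could share its reads. Of the 9 relatives, 6 had enough reads to test and the other 3 had 0 counts in every library. None of the 6 passed the test in any of the 3 comparisons. Mageb18 averaged 118 ± 14.0 CPM in homozygous testes, 155 ± 13.8 CPM in heterozygous testes and 119 ± 33.2 CPM in wild-type testes (SD, n = 3 each). Mageb4 averaged 3.43 ± 0.496 CPM in homozygous, 3.16 ± 0.0343 CPM in heterozygous and 2.43 ± 0.557 CPM in wild-type testes, with a log2 fold change of 0.50 (SE 0.20, adjusted p = 0.0893, edgeR) for homozygous against wild type. The means of Mageb4 thus stood in the graded order of Gm649. So did those of C230004F18Rik, at 0.467 CPM in homozygous, 0.396 CPM in heterozygous and 0.295 CPM in wild-type testes, on 7 to 19 counts per library. The means of Mageb8-ps, Gm4911, Magea6 and Mageb18, the closest relative, did not, and the heterozygous mean of Mageb18 was its highest.

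Nlrp5 (ENSMUSG00000015721.18) spans 56034 bases at chr7:23385889-23441922 on the plus strand (mm10), of which 4847 are exonic in the reference annotation. Its level was 7.44, 11.6 and 13.3 CPM in the homozygous libraries, 3.50, 6.82 and 6.53 CPM in the heterozygous libraries and 2.62, 3.84 and 4.32 CPM in the wild-type libraries. Every homozygous library lay above every other library, while heterozygous library 1 fell inside the wild-type range, so the heterozygous and wild-type groups overlapped. The means were 10.8 ± 3.01 CPM in homozygous testes, 5.62 ± 1.84 CPM in heterozygous testes and 3.59 ± 0.877 CPM in wild-type testes (SD, n = 3 each), the widest homozygous spread relative to its mean among the 4 genes. Nlrp5 had a log2 fold change of 0.95 (SE 0.27) for homozygous against heterozygous, 1.60 (SE 0.29) for homozygous against wild type and 0.64 (SE 0.29) for heterozygous against wild type. Between heterozygous and wild type lay 28.2% of its CPM difference between homozygous and wild-type testes, the smallest share of the 4. Its counts were 210 to 345 fragments per homozygous library, 153 to 204 per heterozygous library and 85 to 104 per wild-type library, against 0 to 6 on the opposite strand in any library.

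Markers of the oocyte, the cell Nlrp5 is best known from, were scarce. Of 9 oocyte markers, 6 did not have enough reads to test, and the zona pellucida genes Zp1, Zp2 and Zp3 had at most 3, 1 and 11 counts in any library. The summed oocyte markers ran from 6.05 to 6.94 CPM in homozygous libraries, 5.95 to 7.12 CPM in heterozygous libraries and 8.42 to 12.9 CPM in wild-type libraries, with Gdf9 as the main part. Gdf9, an oocyte growth factor, averaged 5.17 ± 0.196 CPM in homozygous testes and 8.89 ± 2.10 CPM in wild-type testes (SD, n = 3 each), with a log2 fold change of -0.79 (SE 0.16, adjusted p = 0.00812, edgeR), and was the single one of the 3 tested markers that passed. That is 33.3% called, beside 20.8% of all features. Figla, an oocyte transcription factor gene, averaged 0.607 ± 0.194 CPM in homozygous, 0.652 ± 0.190 CPM in heterozygous and 0.955 ± 0.124 CPM in wild-type testes (SD, n = 3 each). Nobox, another such gene, stood in the order of Nlrp5, at 0.348 ± 0.0998 CPM in homozygous, 0.276 ± 0.164 CPM in heterozygous and 0.256 ± 0.126 CPM in wild-type testes (SD, n = 3 each), with a log2 fold change of 0.39 (SE 0.50, adjusted p = 0.614, edgeR) for homozygous against wild type. The oocyte sum stood lower in homozygous and heterozygous than in wild-type testes. Gdf9 had 133 to 364 counts per library, so that sum mainly follows 1 gene. The part of oocyte-type expression in the level of Nlrp5 was not tested.

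A near copy of Nlrp5 moved the other way. Nlrp5-ps is a transcribed unprocessed pseudogene at chr7:14530652-14622479 on the minus strand (mm10), with 97.8% identity to Nlrp5 over 688 transcript bases. Its level was 30.2, 29.9 and 29.5 CPM in the homozygous libraries, 25.4, 34.2 and 34.4 CPM in the heterozygous libraries and 67.3, 50.3 and 49.6 CPM in the wild-type libraries. All 6 homozygous and heterozygous libraries lay below all 3 wild-type libraries. Nlrp5-ps had a log2 fold change of -0.90 (SE 0.14, adjusted p = 0.00199, edgeR) for homozygous against wild type and -0.84 (SE 0.14, adjusted p = 0.00329, edgeR) for heterozygous against wild type, and both calls held in 15 of 15 alternative settings. For homozygous against heterozygous its log2 fold change was -0.07 (SE 0.14, adjusted p = 1.00, edgeR). Both comparisons with wild type use the same 3 wild-type libraries. Reads from the stretch of near identity cannot be assigned to either copy with certainty, so the level of each is uncertain by that stretch, and exchange of reads between them was not tested. The search for relatives of the 4 genes was added after their values were known. In it the Rassf9 transcript matched transcripts of 238 other genes, 0 of them at 95% identity or more over 100 bases. The closest was Timmdc1, with 83.5% identity over 91 bases. The levels of these Rassf9 matches were not read.

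The 250 bases before the annotated start of Nlrp5, chr7:23385639-23385888 on the plus strand (RefSeq, GRCm38.p6), are shown because Nlrp5 and Slc39a8, whose window follows further on, are the genes of the 4 with an entry in the promoter table. The table holds 2 starts for each of these genes, and the window printed is the one before the start of the counted gene. Capitals mark 4 short matches. From the 5′ end they are a GC box (GGGCGG), a metal response core (TGCGCNC, on the minus strand), a MYB core (AACNG, on the minus strand) and a CCAAT box.
Nlrp5: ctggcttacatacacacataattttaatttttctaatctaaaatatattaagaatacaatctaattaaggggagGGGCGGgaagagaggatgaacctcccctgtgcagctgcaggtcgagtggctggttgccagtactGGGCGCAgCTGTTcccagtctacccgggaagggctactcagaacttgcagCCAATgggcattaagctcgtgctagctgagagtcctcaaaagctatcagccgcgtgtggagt
Of 32851 mouse promoter windows of this length, 32.7% hold GGGCGG, 12.5% TGCGCNC, 74.2% AACNG and 33.8% CCAAT on either strand. The window is 48.8% GC, against a median of 52.4% over all windows. The window of the other Nlrp5 start, chr7:23403852-23404101 (42.4% GC), holds 2 TATA boxes (TATAAA, on the minus strand, in 12.4% of all windows) and a MYB core. A match is a description of these letters and not of a bound site.

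Slc39a8 (ENSMUSG00000053897.15) was the most abundant of the 4 in fragments and the most even between libraries. It spans 63294 bases at chr3:135825279-135888572 on the plus strand (mm10), 7664 of them exonic. In the homozygous libraries it stood at 96.2, 92.9 and 100.1 CPM, in the heterozygous libraries at 68.8, 70.6 and 75.6 CPM and in the wild-type libraries at 54.5, 52.5 and 50.2 CPM. The genotypes formed 3 separate bands, with a gap of 17.3 CPM between the lowest homozygous and the highest heterozygous library. Mean levels were 96.4 ± 3.57 CPM in homozygous testes, 71.7 ± 3.52 CPM in heterozygous testes and 52.4 ± 2.16 CPM in wild-type testes (SD, n = 3 each). Slc39a8 had the smallest log2 fold changes of the 4, with the smallest errors: 0.43 (SE 0.08) for homozygous against heterozygous, 0.88 (SE 0.08) for homozygous against wild type and 0.45 (SE 0.08) for heterozygous against wild type. Its steps were the most even, with 43.8% of the CPM difference between homozygous and wild type lying between heterozygous and wild type.

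For comparison with Nlrp5, the 250 bases before the start of Slc39a8 are chr3:135825029-135825278 on the plus strand (RefSeq, GRCm38.p6). Capitals mark a MYB core (AACNG) near the 5′ end and a cAMP response core (TGACG, on the minus strand) near the start of the gene.
Slc39a8: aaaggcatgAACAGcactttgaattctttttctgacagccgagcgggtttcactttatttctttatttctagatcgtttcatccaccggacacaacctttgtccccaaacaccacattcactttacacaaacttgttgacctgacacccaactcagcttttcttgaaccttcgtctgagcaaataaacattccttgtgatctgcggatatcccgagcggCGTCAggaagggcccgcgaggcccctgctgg
TGACG is held by 17.8% of all windows, and neither TGCGCNC nor TGCACNC, the metal response cores searched, is in these letters. The window of the other Slc39a8 start, chr3:135825407-135825656 (62% GC), does hold TGCACNC, on the minus strand 19 to 13 bases before that start, a core that 10.4% of all windows hold, and also a GC box, but no MYB core. Which motif the genes share thus depends on the start. The printed windows share the MYB core, the most frequent of the 7 motifs searched, whereas the other Slc39a8 window shares the GC box with the printed Nlrp5 window. Promoter sequences were matched for 2 of the 4 genes, and Rassf9 and Gm649 were not matched.

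The 4 genes differed in how much signal they gave per length. Per kilobase of gene body, introns included, Gm649 had 3.17 CPM in homozygous, 1.64 CPM in heterozygous and 0.725 CPM in wild-type testes (means of 3 libraries each). On the same scale Slc39a8 had 1.52 CPM in homozygous, 1.13 CPM in heterozygous and 0.828 CPM in wild-type testes. Rassf9 followed with 0.801 CPM per kilobase in homozygous, 0.479 CPM in heterozygous and 0.316 CPM in wild-type testes. Nlrp5 had the lowest level per length, 0.192 CPM in homozygous, 0.100 CPM in heterozygous and 0.0641 CPM in wild-type testes. Gm649 thus led in homozygous testes, where its lowest library (2.85 CPM per kilobase) lay above the highest of Slc39a8 (1.58), whereas in wild-type testes its highest library (0.777) lay below the lowest of Slc39a8 (0.793). In heterozygous testes these genes overlapped, at 1.13 to 2.45 for Gm649 and 1.09 to 1.19 for Slc39a8, whereas Rassf9 and Nlrp5 stood apart from their neighbours in the order in every genotype. The body of Gm649 is exon alone while the others are mostly intron, so a level per length does not weigh spliced RNA equally among them.

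**Figure D2:**
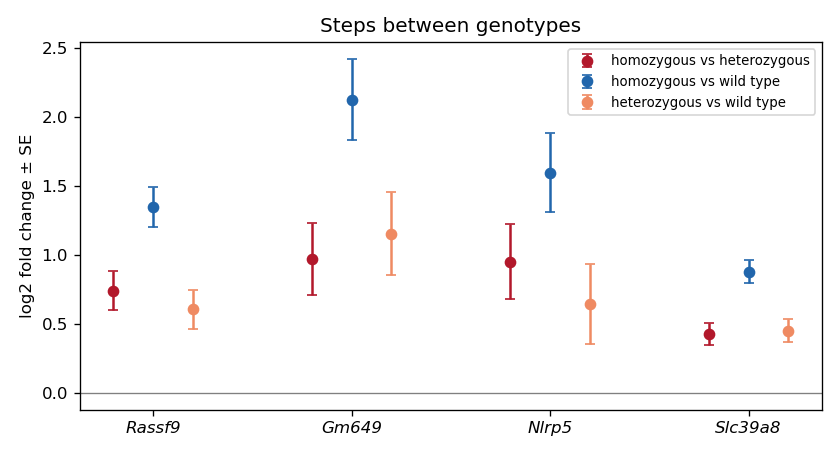
Log2 fold change of each of the 4 genes (vertical axis, with bars of 1 SE) for homozygous against heterozygous, homozygous against wild type and heterozygous against wild type, from 1 edgeR fit over 9 libraries. Slc39a8 has the shortest bars and the smallest steps (0.43, 0.88 and 0.45), and Gm649 the largest change from wild type (2.12).

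Against the whole transcriptome the contrast that chose the 4 genes was nearly empty. Between homozygous and heterozygous testes 0 of the 4 genes passed an adjusted p of 0.05 by edgeR, where 0.0289% of the 20782 features tested did and 0.0144% did with a higher level, and this count supports nothing because the contrast entered the choice. All 4 had an unadjusted p under 0.05 there, and DESeq2 called 2 of them, Rassf9 and Slc39a8. Ranked by log2 fold change in that comparison, Gm649 was 62nd, Nlrp5 68th, Rassf9 124th and Slc39a8 501st of 20782 features. For homozygous against wild type 4 of 4 passed, in a comparison where 20.8% of all features did and 9.68% did with a higher level. For heterozygous against wild type 3 of 4 passed (Nlrp5 did not), where 23.9% of all features did and 11.1% did with a higher level. Gm649 lost that last call without wild-type library 1, wild-type library 2 or heterozygous library 3, where its log2 fold change was 1.17, 1.10 and 0.76 in that order, and Nlrp5 gained it without heterozygous library 1, at 0.91, and with no low count filter, at 0.65. The differences from wild type entered the choice too, so these counts also support nothing. All 4 genes had every homozygous library above the other 6 libraries, as did 1.49% of features, and 3 of 4 had 3 separate bands in the order homozygous, heterozygous, wild type, as did 0.606% of features. The reverse order of 3 separate bands was held by 0.327% of features. Taken by pairs, 4 of 4 had every homozygous library above every heterozygous one (3.86% of features), 4 of 4 had homozygous above wild type (20.6%) and 3 of 4 had heterozygous above wild type (20.5%). These counts restate the choice.

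Over the 9 libraries the log2 levels of the 4 genes ran together, with Pearson's r of 0.855 (Gm649 and Nlrp5) to 0.961 (Gm649 and Slc39a8) among the 6 pairs. The points share their genotype, their library and its depth, and the genes were picked for one pattern, so this is a description. Among 17475 features averaging at least 1 CPM, the closest to Rassf9 were Map7d3 (r = 0.973), Gm6729 (0.969) and Scn10a (0.963). Map7d3, a microtubule-binding protein gene, averaged 35.2 ± 2.56 CPM in homozygous, 17.8 ± 1.97 CPM in heterozygous and 13.4 ± 1.99 CPM in wild-type testes (SD, n = 3 each), nearly the levels of Rassf9 itself. Closest to Gm649 were Abce1 (r = 0.976), Pcdh17 (0.974) and Epcam (0.973). Nlrp5 was closest to Gm6439 (r = 0.962), Kdm1b (0.961) and Ankrd6 (0.948). Slc39a8 was closest to Birc2 (r = 0.993), Ccdc174 (0.981) and Scn10a (0.979). Birc2, an inhibitor of apoptosis gene, averaged 277 ± 8.00 CPM in homozygous, 205 ± 16.0 CPM in heterozygous and 143 ± 9.60 CPM in wild-type testes (SD, n = 3 each), again 3 separate levels.

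Slc39a8 was the one gene of the 4 with much RNA on its other strand, and there homozygous and heterozygous testes stood together. The opposite strand of its body held 43.6, 47.4 and 49.5 CPM in the homozygous libraries, 42.9, 42.9 and 49.5 CPM in the heterozygous libraries and 17.3, 22.3 and 23.9 CPM in the wild-type libraries. Those ranges overlapped between homozygous and heterozygous libraries and both lay above wild type, whereas the kit strand had 3 separate bands. The log2 ratio of means on the opposite strand was 0.05 for homozygous against heterozygous, 1.15 for homozygous against wild type and 1.09 for heterozygous against wild type.

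Most of that signal came from one noncoding RNA. 4933401H06Rik (ENSMUSG00000106306.4), a processed transcript at chr3:135833701-135840269 on the minus strand (mm10), lies within Slc39a8, covers 10.4% of its body and contains 0 of its exonic bases. It made up 84.6 to 89.9% of the opposite-strand count of Slc39a8 in the 9 libraries. On its own strand it had 38.8, 42.3 and 43.2 CPM in the homozygous libraries, 36.8, 37.1 and 42.7 CPM in the heterozygous libraries and 14.6, 19.9 and 21.5 CPM in the wild-type libraries. Its log2 fold change was 1.15 (SE 0.13) for homozygous and 1.06 (SE 0.13) for heterozygous against wild type. For homozygous against heterozygous it was 0.09 (SE 0.13). Its reads made up most of the opposite-strand count of Slc39a8. Counts on that strand entered the choice, so these changes are described without p-values. Both RNAs thus stood above wild type in both genotypes, and the antisense RNA had the smaller step between homozygous and heterozygous testes. Whether the antisense step and the Slc39a8 step differed was not tested, since the Slc39a8 step was used in the choice.

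Within the stretch that the antisense RNA covers, which is intron for Slc39a8, the Slc39a8 strand held little RNA. It had 2.90, 2.97 and 3.16 CPM in the homozygous libraries, 3.25, 2.97 and 2.51 CPM in the heterozygous libraries and 2.90, 2.48 and 2.18 CPM in the wild-type libraries. Heterozygous libraries overlapped both other genotypes there, and the homozygous libraries met the wild-type range at its top, with both at 2.90 CPM after rounding. As a share of all Slc39a8 signal the stretch gave 3.12 ± 0.0933% in homozygous, 4.08 ± 0.709% in heterozygous and 4.79 ± 0.488% in wild-type testes (SD, n = 3 each). Leakage of antisense fragments onto the Slc39a8 strand is included in these values and was not separated.

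**Figure D3:**
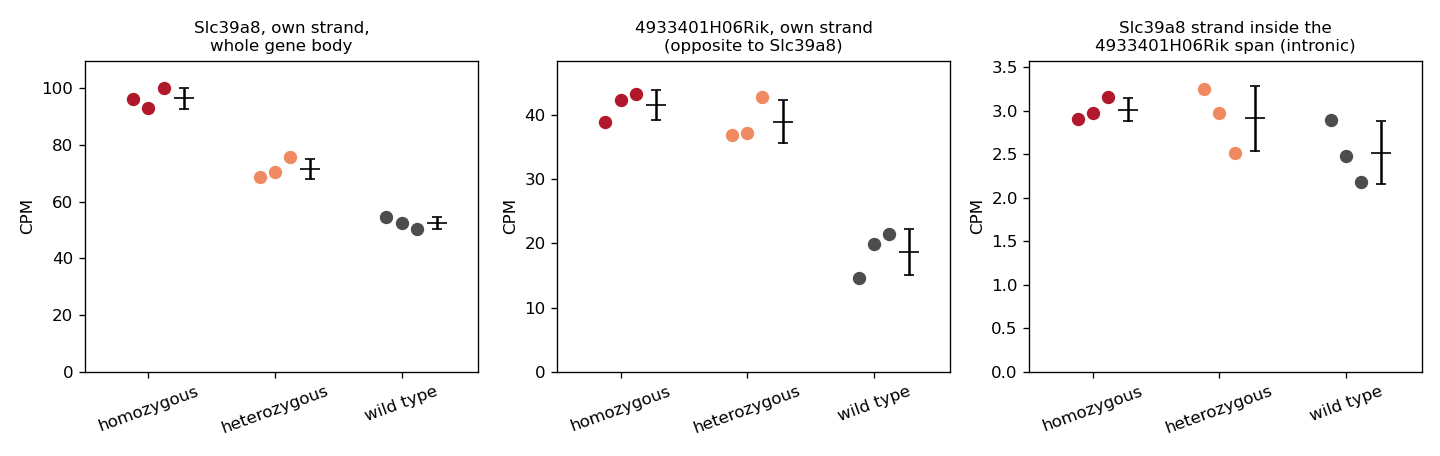
CPM by library (points; bars are mean and SD, n = 3) of Slc39a8 on its own strand (left), of the antisense 4933401H06Rik on its own strand (middle) and of the Slc39a8 strand inside the span of 4933401H06Rik (right), homozygous, heterozygous and wild type from left to right, each axis from 0. Slc39a8 shows 3 separate bands, the antisense RNA shows homozygous (38.8 to 43.2) and heterozygous (36.8 to 42.7) together above wild type (14.6 to 21.5), and in the intronic stretch all libraries lie between 2.18 and 3.25 CPM, with heterozygous libraries over both other ranges.

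Few genes around the 4 loci had enough reads to read beside them. Within 250 kb lay 43 other annotated features, of which 7 were tested. Between homozygous and heterozygous testes 0 of the 7 passed by edgeR or DESeq2, and 0 had an unadjusted p under 0.05, with a median log2 fold change of 0.09 against 0.01 over all features. Against wild type 2 of the 7 passed in homozygous and the same number in heterozygous testes, all higher, namely 4933401H06Rik and Pet2. That is 28.6% of the 7, beside 20.8% of all features for homozygous and 23.9% for heterozygous against wild type. The reads of 4933401H06Rik entered the choice through the opposite strand of Slc39a8, so its calls support nothing. The median log2 fold change of the 7 was 0.34 for homozygous and 0.31 for heterozygous against wild type, beside -0.01 and 0.00 over all features. Pet2, on the X chromosome 121677 bases from Gm649, had 7.26, 8.53 and 7.12 CPM in the homozygous libraries, 6.27, 6.55 and 7.84 CPM in the heterozygous libraries and 4.72, 4.69 and 5.19 CPM in the wild-type libraries. Homozygous and heterozygous libraries of Pet2 overlapped, and both lay above wild type. Its log2 fold change was 0.65 (SE 0.14, adjusted p = 0.0090, edgeR) for homozygous against wild type and 0.50 (SE 0.14, adjusted p = 0.0242, edgeR) for heterozygous against wild type. The second call was lost without wild-type library 1, wild-type library 2 or heterozygous library 3 (adjusted p up to 0.0870). Near Rassf9, the glycosyltransferase gene Mgat4c had 56.7 ± 9.20 CPM in homozygous, 74.5 ± 8.82 CPM in heterozygous and 60.3 ± 19.1 CPM in wild-type testes. Near Nlrp5, its relative Nlrp4e, 23612 bases away, had 3.67 ± 0.610 CPM in homozygous, 3.38 ± 0.398 CPM in heterozygous and 3.38 ± 0.664 CPM in wild-type testes. Nfkb1, which encodes an NF-kappa B subunit and lies near Slc39a8, had 16.7 ± 1.13 CPM in homozygous, 18.0 ± 0.699 CPM in heterozygous and 16.7 ± 1.56 CPM in wild-type testes (SD, n = 3 each). Bank1 and Gm31243 also lie near Slc39a8. Bank1 had 2.77 ± 0.472 CPM in homozygous, 2.43 ± 0.0503 CPM in heterozygous and 2.16 ± 0.273 CPM in wild-type testes (SD). The means of Bank1 thus stood in the order of Slc39a8. Gm31243 had 1.66 ± 0.210 CPM in homozygous, 1.70 ± 0.314 CPM in heterozygous and 1.31 ± 0.432 CPM in wild-type testes (SD). Besides 4933401H06Rik and Pet2, none of the tested neighbours passed in any comparison.

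No other RASSF gene or partner passed the test between homozygous and heterozygous testes. All 13 listed genes were tested, 0 passed by edgeR or DESeq2, and 0 had an unadjusted p under 0.05. Their median log2 fold change was 0.02, against 0.01 over all features. The lowest p values belonged to Rassf6 (log2 fold change -0.62, SE 0.31) and Stk3 (-0.18, SE 0.11), both below 0. Pam, the endosomal partner of Rassf9, averaged 70.2 ± 9.47 CPM in homozygous, 73.6 ± 5.97 CPM in heterozygous and 71.6 ± 1.23 CPM in wild-type testes (SD, n = 3 each). Against wild type 3 of 13 rose in homozygous testes and 0 fell, with a median of -0.03. That is 23.1% called, near the 20.8% of all features, and in heterozygous testes 15.4% were called, beside 23.9% of all features. Those higher in homozygous testes were Stk3, which encodes the Hippo kinase MST2 (0.43, SE 0.11, adjusted p = 0.0182), Rassf8, another N-terminal family member like Rassf9 (0.51, SE 0.13, adjusted p = 0.0210), and Rassf3 (0.42, SE 0.13, adjusted p = 0.0437), all by edgeR. The count was 1 with wild-type library 2 left out, and 0 with homozygous library 2 or 3 left out (adjusted p up to 0.0870 for Stk3 and 0.0864 for Rassf8). Rassf3 lost its call in 9 of 15 alternatives, among them each homozygous and each wild-type library left out in turn (log2 fold change 0.29 to 0.47, adjusted p up to 0.141). In heterozygous testes Stk3 (0.60) and Rassf8 (0.57) rose against wild type, and both calls held in 15 of 15 alternatives. Stk3 averaged 69.6 ± 5.17 CPM in homozygous, 78.8 ± 7.15 CPM in heterozygous and 51.9 ± 6.00 CPM in wild-type testes (SD, n = 3 each), so its heterozygous mean was the highest, unlike that of Rassf9. Means in the order of Rassf9 were held by Rassf3, Rassf4, Stk4 and Sav1, and in the reverse order by Rassf5 and Rassf6. Rassf4 averaged 6.13 ± 1.35 CPM in homozygous, 5.03 ± 0.171 CPM in heterozygous and 4.29 ± 0.528 CPM in wild-type testes (SD). Its log2 fold change was 0.51 (SE 0.18, adjusted p = 0.0584, edgeR) for homozygous against wild type.

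In the NLRP family and the subcortical maternal complex, no gene passed between homozygous and heterozygous testes, and against wild type the share that passed in homozygous testes was near that of all features. Of 24 listed genes 14 were tested. Between homozygous and heterozygous testes 0 passed by edgeR or DESeq2, 0 had an unadjusted p under 0.05, and the median log2 fold change was 0.03. The lowest p values were those of Nlrp10 (-0.68, SE 0.44) and Nlrp4c (0.18, SE 0.13). Of the partners of Nlrp5 in the oocyte complex, Tle6 averaged 6.04 ± 0.241 CPM in homozygous, 5.40 ± 0.628 CPM in heterozygous and 5.55 ± 0.877 CPM in wild-type testes (SD, n = 3 each). Padi6 averaged 5.03 ± 1.54 CPM in homozygous, 5.15 ± 1.33 CPM in heterozygous and 5.61 ± 0.580 CPM in wild-type testes (SD, n = 3 each). Neither passed in any comparison, and Ooep and Khdc3 did not have enough reads to test. Nlrp14, the member of the family best known from testis, averaged 204 ± 4.80 CPM in homozygous, 196 ± 26.9 CPM in heterozygous and 173 ± 10.1 CPM in wild-type testes and passed in no comparison.

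Against wild type 2 of these 14 (Nlrp4a and Nlrp4c) rose in homozygous testes and 1 (Nlrx1) fell, with a median of 0.12. That is 21.4% called, beside 20.8% of all features, and in heterozygous testes 14.3% were called, beside 23.9% of all features. Nlrp4a had 22, 29 and 23 counts in the homozygous libraries, 20, 18 and 25 counts in the heterozygous libraries and 1, 1 and 4 counts in the wild-type libraries. Its log2 fold change was 3.51 (SE 0.52, adjusted p = 0.00158, edgeR) for homozygous and 3.00 (SE 0.53, adjusted p = 0.00422, edgeR) for heterozygous against wild type, both called in 15 of 15 alternatives, though with so few wild-type counts the size is loose (3.07 to 4.57 for homozygous). Nlrp4c rose by 0.46 (SE 0.13, adjusted p = 0.0257, edgeR) in homozygous against wild-type testes, a call that leaving out any of wild-type libraries 2 and 3 and homozygous libraries 2 and 3 removed (adjusted p up to 0.0960). Nlrx1, a mitochondrial member of the family, had a log2 fold change of -0.62 (SE 0.17, adjusted p = 0.0277, edgeR), lost without wild-type library 1 or 3 or any 1 homozygous library (adjusted p up to 0.0916). In heterozygous testes 1 of the 14 rose against wild type (Nlrp4a) and 1 fell (Nlrx1, -0.62). The heterozygous Nlrx1 call was lost without wild-type library 1 or 3 or heterozygous library 3, and with library size only (adjusted p up to 0.0889). Genes of the Nlrp4 group have close relatives in the genome, so their counts may share reads.

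Other zinc transporters and metallothioneins, the metal-binding proteins whose genes respond to zinc and cadmium, moved in both directions where they passed. Of 28 listed genes 23 were tested. Between homozygous and heterozygous testes 0 passed by edgeR or DESeq2, with a median log2 fold change of 0.04. The single one with an unadjusted p under 0.05, Slc39a12, lay lower in homozygous testes (-0.56, SE 0.23, adjusted p = 1.00, edgeR), and next came Slc39a4 (0.44, SE 0.28). Slc39a14, the closest relative of Slc39a8 by sequence, with 74.0% identity over 342 bases, averaged 11.4 ± 0.791 CPM in homozygous, 11.0 ± 1.12 CPM in heterozygous and 10.3 ± 0.942 CPM in wild-type testes (SD, n = 3 each) and passed in no comparison. Mtf1, the gene of the metal-responsive transcription factor, averaged 77.9 ± 5.38 CPM in homozygous, 74.6 ± 3.98 CPM in heterozygous and 79.0 ± 1.75 CPM in wild-type testes.

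Against wild type 2 of the 23 rose in homozygous testes and 3 fell, with a median of -0.03. That is 21.7% called, near the 20.8% of all features, so the genes named here are single genes and no result about the list. Slc39a13, a zinc transporter of the secretory pathway, had 17.6, 17.6 and 18.6 CPM in the homozygous libraries, 15.8, 20.4 and 17.8 CPM in the heterozygous libraries and 26.9, 23.6 and 26.7 CPM in the wild-type libraries. It fell by 0.52 (SE 0.11, adjusted p = 0.00836, edgeR) in homozygous and by 0.52 (SE 0.11, adjusted p = 0.00797, edgeR) in heterozygous against wild-type testes, and both calls held in 15 of 15 alternatives. Slc39a3, a plasma membrane zinc importer, fell by 0.56 (SE 0.15, adjusted p = 0.0238, edgeR) in homozygous testes. Slc30a7, a zinc transporter of the Golgi, rose by 0.39 (SE 0.10, adjusted p = 0.0176, edgeR), and Mt3 rose by 0.77 (SE 0.19, adjusted p = 0.0176, edgeR). Leaving out any of wild-type libraries 1 and 2 and homozygous libraries 2 and 3 removed the Slc39a3 call (adjusted p up to 0.103), and leaving out any of wild-type libraries 2 and 3 and homozygous library 2 removed those of Slc30a7 and Mt3 (adjusted p up to 0.0795 and 0.0765). Mt1, named after its values were seen, fell by 0.67 (adjusted p = 0.0295, edgeR) and lost its call without wild-type library 1 or homozygous library 2 or 3 (adjusted p up to 0.106). Without wild-type library 1 its log2 fold change was -0.37, against -0.67 with all libraries. Leaving out 1 wild-type library gave counts of 3 (library 1) and 2 (library 2) in place of 5, and leaving out 1 homozygous library gave 1 (library 2) and 3 (library 3). In heterozygous testes 2 of the 23 rose against wild type and 5 fell, a count of 7 (30.4%, beside 23.9% of all features) that was 3 without heterozygous library 3. The comparisons with wild type in these lists share their wild-type libraries, and the elongating spermatid and Leydig markers given above stood lower in both.

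**Figure D4:**
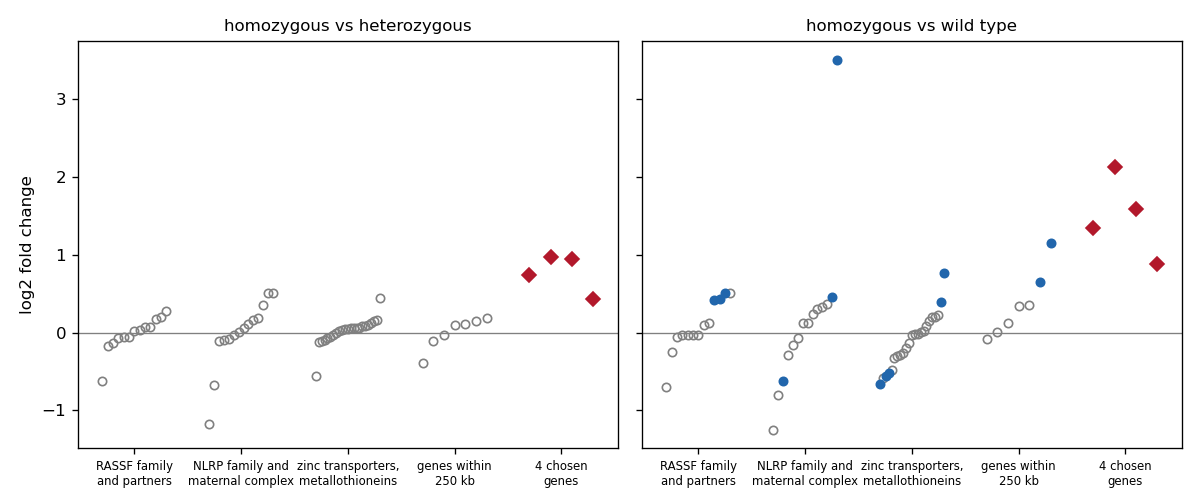
Log2 fold change (vertical axis) of each tested gene of the RASSF, NLRP and zinc lists, of the neighbours within 250 kb and of the 4 chosen genes, for homozygous against heterozygous (left) and homozygous against wild type (right). Filled blue points passed an adjusted p of 0.05 by edgeR, open points did not, and red diamonds are the 4 chosen genes, shown without a test. No listed gene passed on the left, whereas on the right 3 of 13 RASSF genes, 3 of 14 NLRP genes, 5 of 23 zinc genes and 2 of 7 neighbours did, where 20.8% of all features did. The neighbours that passed include the antisense 4933401H06Rik, whose reads entered the choice.

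Markers of other cells that might carry the 4 genes were read beside them. Slc39a8 is known from endothelium, and summed endothelial markers ran from 36.9 to 40.9 CPM in homozygous, 35.8 to 42.5 CPM in heterozygous and 38.2 to 42.3 CPM in wild-type libraries, with 0 of 6 passing in any comparison by edgeR. One endothelial marker, Pecam1, had an unadjusted p under 0.05 (edgeR) for homozygous against wild type, and DESeq2 called 1 of the 6 there. Pecam1 averaged 4.63 ± 0.175 CPM in homozygous, 3.88 ± 0.140 CPM in heterozygous and 3.29 ± 0.600 CPM in wild-type testes (SD). Its log2 fold change for homozygous against wild type was 0.48 (SE 0.16, adjusted p = 0.0512, edgeR). The means of Pecam1 thus stood in the order of Slc39a8. Those of the other endothelial markers did not, and Kdr and Vwf had their highest mean in wild-type testes. Rassf9 is known from keratinocytes, and summed epithelial markers ran from 45.8 to 46.4 CPM in homozygous, 36.3 to 46.3 CPM in heterozygous and 34.4 to 36.4 CPM in wild-type libraries. Most of that sum was Epcam, which also marks spermatogonia, and which rose by 0.47 (adjusted p = 0.00946, edgeR) in homozygous against wild-type testes. Of the 6 epithelial markers 4 had enough reads to test and 1 passed in that comparison (25%, beside 20.8% of all features). Pachytene spermatocyte markers, of the cells that make these piRNAs, summed to 2011 to 2179 CPM in homozygous, 1924 to 2102 CPM in heterozygous and 1961 to 2329 CPM in wild-type libraries. Within that sum single markers moved both ways for homozygous against wild type. There 3 of 7 were called higher, such as Sycp3 (0.81, adjusted p = 0.00242, edgeR), and 1 lower, Spag6 (-0.39, adjusted p = 0.0251, edgeR). That is 57.1% called, beside 20.8% of all features. Spermatogonial markers summed to 134 to 146 CPM in homozygous, 128 to 137 CPM in heterozygous and 138 to 168 CPM in wild-type libraries, and Sertoli cell markers to 786 to 909 CPM in homozygous, 733 to 846 CPM in heterozygous and 913 to 958 CPM in wild-type libraries. The homozygous and heterozygous ranges overlapped for each of these sums, the endothelial and epithelial ones included. The part of these cells in the levels of the 4 genes was not tested.

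**Figure D5:**
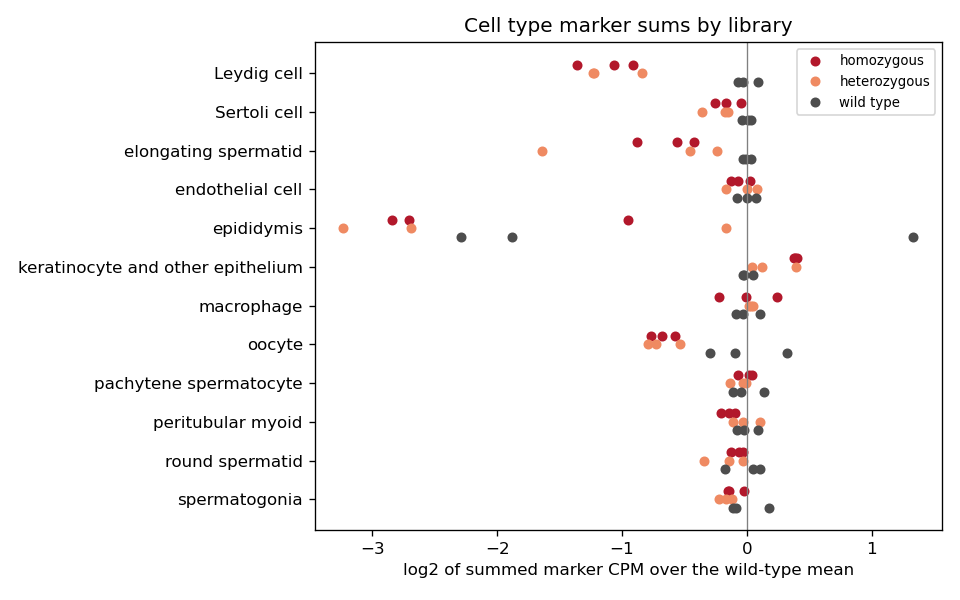
Summed CPM of each cell type's markers in each library, as log2 of its ratio to the wild-type mean (horizontal axis), with homozygous points above heterozygous and wild-type points in each row. Leydig (423 to 575 CPM in homozygous, 1033 to 1155 CPM in wild-type libraries) and elongating spermatid markers lie left of wild type in both other genotypes, and the epididymis row, with 1 of 5 markers testable, scatters.

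Small RNA from the 4 genes was close to absent in libraries enriched for RNAs with a protected 3′ end, as piRNAs have. Exonic reads on the sense strand of Rassf9 numbered 0 in 3 homozygous and 0 in 3 heterozygous libraries. The exact Poisson 95% interval over each group reaches up to 0.959 RPM (reads relative to the library total) in homozygous and 0.931 RPM in heterozygous testes. Gm649 had 0 reads in homozygous libraries and 1 in heterozygous libraries, and Nlrp5 had 1 read in each genotype. Slc39a8 had 2, 5 and 5 reads in the homozygous libraries and 4, 1 and 2 in the heterozygous libraries. Pooled over each group that is 3.12 RPM in homozygous (exact Poisson 95% interval 1.61 to 5.45) and 1.77 RPM in heterozygous testes (0.710 to 3.64), intervals that overlap and cover counting error only. None of the 4 genes had enough small RNA reads to test, in a comparison of homozygous with heterozygous testes where 0.0279% of 3581 features passed. Reads antisense to the 4 genes and reads over their introns were not analysed here.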

How the data were processed

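RNA-seq and small RNA libraries of mouse testis were grouped by their genotype labels. The deposited values are raw counts, which the authors made per feature with featureCounts 1.6.2 (RNA-seq) and 1.6.1 (small RNA), per the file headers. RNA-seq counts cover whole gene bodies, introns included, of GENCODE genes and piRNA precursors, with 1 file per strand setting, so unspliced RNA enters each value. Small RNA counts cover exons on the sense strand. The submitters' processing notes also name cutadapt 1.18 and HISAT2 2.1.0, with the mm10 and mm9 builds. The deposited counts were analysed with R 4.3.3 and edgeR 4.0.16 (limma 3.58.1, with the data.table package in version 1.17.8). filterByExpr kept 20782 of 50051 features, TMM set the library scale, 1 quasi-likelihood fit with group means held all 9 libraries, and Benjamini-Hochberg adjusted p under 0.05 was a call. Every adjusted p is from this fit unless DESeq2 1.42.0 is named. The fit was tested on simulated data, and matplotlib 3.10.9 drew the plots. Transcripts of GENCODE M21 were compared with blastn 2.17.0.

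The 4 genes and all gene lists were chosen with earlier results of these data known. Besides the 4 genes, the text names tested neighbours, up to 4 genes per list with the lowest p among those called (the first 2 where none was), the 3 features most like each gene, partners and relatives by function or sequence, and marker genes. Marker lists not given in the report are macrophage (92.6 to 128 CPM in homozygous, 110 to 112 CPM in heterozygous and 102 to 117 CPM in wild-type libraries, 0 of 5 called in any comparison), peritubular myoid (1 of 5 lower in homozygous than in wild-type testes, 0 in heterozygous) and round spermatid (1 of 6 higher in homozygous than in wild-type testes). Of the pachytene list, 3 of 7 were higher and 1 lower in homozygous than in wild-type testes, and 2 were higher and 2 lower in heterozygous testes. Each is 57.1% called, beside 20.8% of all features for homozygous and 23.9% for heterozygous against wild type. For homozygous against wild type 1 of 7 on the spermatogonial list was higher and 1 lower (28.6%), and 0 of 7 on the Sertoli list were called. The peritubular myoid and round spermatid counts there are 20% and 16.7% called. For heterozygous against wild type 1 of 6 round spermatid markers was higher and 1 lower (33.3%, beside 23.9% of all features). In the same comparison 1 of 7 spermatogonial markers was higher and 1 lower (28.6%), and 1 of 7 Sertoli markers was higher (14.3%). Alternatives were RLE and library-size scaling, no filter, both strands summed, DESeq2, only the groups compared and each library left out. Pairs of replicates varied beyond counting noise, with a chi-square over its degrees of freedom between 3.12 and 50.7 (RNA-seq) and between 2.11 and 27.2 (small RNA), so each counted as 1 sample. That spread may be technical and does not show that the libraries came from separate animals. Opposite-strand totals were 8.81 to 10.7% of the kit-strand totals, and small RNA totals ran from 939641 to 1861402 reads.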

Additional observations from a re-analysis of the deposited data

How the results depend on the processing

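The 4 genes were chosen for their order over the genotypes in these same libraries. The signs of their changes therefore restate the choice under other settings and support nothing. All 4 genes kept a positive log2 fold change in each of the 3 comparisons under all 15 alternatives, and 176 of 180 values moved by less than the spread between replicates. The others were Slc39a8, at 0.55 for heterozygous against wild type with library size only, and with both strands summed at 0.30 for homozygous against heterozygous, 0.97 for homozygous against wild type and 0.68 for heterozygous against wild type, where the sum adds the antisense RNA. Calls between homozygous and heterozygous testes numbered 13 with no low count filter (1 of the 4 genes) and 17 with DESeq2 (2 of the 4), and 4 to 18 with a library left out, 18 without heterozygous library 3. With a library left out, calls ran from 1805 to 4737 for homozygous and from 2432 to 4720 for heterozygous against wild type. Likewise RASSF calls ran from 0 to 3, NLRP calls from 1 to 4 and zinc calls from 1 to 6 for homozygous against wild type. For heterozygous against wild type NLRP calls ran from 1 to 3, zinc calls from 3 to 7, neighbours from 1 to 2 and the 4 genes from 2 to 4. Spearman's correlation kept 1, 0, 0 and 1 of the 3 features most like Rassf9, Gm649, Nlrp5 and Slc39a8. Small RNA calls were 43 with no filter, 0 to 617 with a library left out (617 without heterozygous library 1) and 0 with a replicate block. The same-numbered small RNA libraries did not deviate together (r of -0.155, 0.00281 and -0.0885, against -0.123 to 0.141 for other pairs). The number thus showed no pairing, though 3 libraries per group cannot exclude one. No paired analysis was possible because RNA-seq numbers follow the order of the samples. The causes were not tested. Depth limits Gm649, with 18 to 25 fragments per wild-type library, Nlrp4a, with 1 to 4, and the small RNA values of the 4 genes, with 0 to 5 reads per library.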
